A study of Mus musculus with 4 samples.

Results

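Genes that feed back on MAP kinases were followed in bone marrow-derived macrophages of Cdk5r1 knockout and wildtype mice, after bacterial lipopolysaccharide (LPS) and at rest. The group comprised 10 genes chosen by name: the dual-specificity phosphatase genes Dusp1, Dusp2, Dusp4, Dusp5, Dusp6, Dusp10 and Dusp16, the Sprouty genes Spry1 and Spry2, and the Tribbles gene Trib1. They were found through the accession of each probe, which gave 12 of the 39429 probes of the array, with a second probe for Dusp16 and for Trib1. All 12 probes passed the filter on dim signal, so all 10 genes were among the 23584 genes or accessions tested. Bone marrow of male mice, 6 weeks old, was grown over 7 days in GM-CSF (25 ng/ml), and the stimulated cultures received E. coli LPS at 100 ng/ml for 6 h. The labels give the strain B6.129S4-Cdk5r1tm1Lht/J, which carries a targeted Cdk5r1 allele, for the knockout and for the wildtype RNA. The product of Cdk5r1 is p35, which activates CDK5. Each of the 4 arrays held knockout RNA in the Cy5 channel and wildtype RNA in the Cy3 channel. There were 2 LPS arrays and 2 basal arrays, called biological replicates in the labels without naming the animals, so the p-values measure the spread between these arrays.

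MAP kinases (ERK, JNK and p38) are switched on by phosphorylation of a threonine and a tyrosine in their activation loop, and dual-specificity phosphatases remove both phosphates. Many of these phosphatases are themselves induced by the kinases they switch off, which makes them feedback inhibitors. DUSP1, DUSP2, DUSP4 and DUSP5 act in the nucleus, DUSP6 acts on ERK in the cytoplasm, and DUSP10 and DUSP16 prefer JNK and p38. Sprouty proteins dampen signalling from growth factor receptors to ERK. TRIB1 is a pseudokinase that brings C/EBP transcription factors to the ubiquitin ligase COP1. In macrophages, LPS acts through TLR4 to activate all of these MAP kinase families.

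Every array had the same dye orientation, and so in a ratio of knockout over wildtype a probe's dye bias and its genotype effect cannot be told apart. A constant dye effect cancels in LPS against basal within a channel and in the difference of ratios between conditions. On the arrays, 62.1% to 65.0% of the probe spots were well above background in the knockout channel and 68.3% to 71.0% in the wildtype channel, and no probe spot was saturated. Cdk5r1, the targeted gene, had a log2 ratio of knockout over wildtype of -2.55 and -2.29 on the LPS arrays, against -0.37 and -0.59 on the basal arrays, and whether its probes lie in the deleted part is not known here. Of 10 macrophage markers 9 were measured, and each was above background in every group. In the knockout 2 of them were lower under LPS (Cd14 at -0.51 and Fcgr1 at -0.47) and 1 at rest (Lyz2 at -0.46), and 0 were higher. Among all genes 7.16% were higher and 5.22% lower in the knockout under LPS, and 3.37% and 1.49% at rest. Neutrophil markers were lower in the knockout. Of 9 measured, 7 were lower under LPS and 6 at rest. Their summed level (log2) was 16.72 to 16.74 in knockout against 18.13 to 18.29 in wildtype LPS samples, and 15.78 to 16.39 in knockout against 16.83 to 17.44 in wildtype basal samples. In bulk RNA, fewer cells of a type and less RNA per cell cannot be told apart, and the part of these cells in the results below was not tested. Eosinophil, mast cell and basophil markers summed to 12.92 to 12.93 in knockout against 13.87 to 14.30 in wildtype LPS samples, and to 12.58 to 13.08 against 13.05 to 13.34 at rest. Of these 7 markers 1 was higher and 2 were lower in the knockout under LPS, and 2 were higher and 2 lower at rest. Epx (-1.69 under LPS and -1.42 at rest) and Prg2 (-1.60 and -1.50) were lower in both, while Cpa3 was higher in both (0.57 and 0.81) and Mcpt8 was higher at rest (0.73). Fcer1a, among the 7 measured, was not well above background in the knockout samples. For the 7 dendritic cell markers the sums were 17.71 to 17.85 in knockout against 17.64 to 17.75 in wildtype LPS samples, and 16.49 to 16.69 against 16.67 to 16.82 at rest. In the knockout under LPS 2 of the 7 were higher (Dpp4 at 1.26 and Kmo at 0.37) and 1 was lower (Itgax at -0.59), and at rest 0 passed.

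The promoters of the members, whatever their response to LPS, were read from RefSeq (GRCm38.p6), in which 8 of the 10 members matched (not Dusp4 or Trib1). The 250 bases before the start are shown 5′ to 3′ for 3 nuclear phosphatase genes that rose (Dusp1, Dusp2 and Dusp5) and for Dusp6, which fell. Capitals mark the core TGACG of a cAMP response element on either strand and the CArG box bound by serum response factor.
Dusp1, chr17:26508473-26508722, - strand: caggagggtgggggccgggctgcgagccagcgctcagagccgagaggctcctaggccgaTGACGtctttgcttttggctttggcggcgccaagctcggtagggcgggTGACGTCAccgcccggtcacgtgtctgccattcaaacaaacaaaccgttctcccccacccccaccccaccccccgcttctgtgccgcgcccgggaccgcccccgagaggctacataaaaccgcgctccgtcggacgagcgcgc
Dusp2, chr2:127335909-127336158, + strand: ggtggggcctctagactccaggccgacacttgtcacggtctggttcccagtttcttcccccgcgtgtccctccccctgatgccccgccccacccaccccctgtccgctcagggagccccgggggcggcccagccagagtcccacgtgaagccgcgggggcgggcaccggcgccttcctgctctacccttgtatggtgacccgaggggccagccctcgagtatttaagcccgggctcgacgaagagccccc
Dusp5, chr19:53528895-53529144, + strand: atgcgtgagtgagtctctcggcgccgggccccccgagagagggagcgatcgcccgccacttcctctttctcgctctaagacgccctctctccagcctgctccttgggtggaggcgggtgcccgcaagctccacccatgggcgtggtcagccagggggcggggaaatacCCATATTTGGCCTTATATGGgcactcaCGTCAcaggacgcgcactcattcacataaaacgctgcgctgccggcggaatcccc
Dusp6, chr10:99262981-99263230, + strand: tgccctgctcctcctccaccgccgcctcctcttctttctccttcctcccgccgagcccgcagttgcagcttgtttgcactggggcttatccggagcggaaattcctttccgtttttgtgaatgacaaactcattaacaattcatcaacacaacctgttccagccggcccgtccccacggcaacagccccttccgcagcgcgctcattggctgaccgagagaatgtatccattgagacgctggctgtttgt

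The Dusp1 window held a full cAMP response element, TGACGTCA, at position -143 from the start, which 1.55% of the 32851 listed promoter windows hold on either strand. The core TGACG matched 3 times in the Dusp1 window, on both strands of that element and once further upstream, and was found in the windows of 3 of the 8 listed members (Dusp1, Dusp5 and Dusp16), against 17.8% of all windows. The Dusp5 window held 2 CArG boxes end to end, which overlap neither TGACG nor each other, and 1.47% of all windows hold at least 1. The AP-1 site TGANTCA (6.75% of all windows) and the NF-kappaB site (7.25%) were found in the windows of 0 of the 8 members. These matches describe the letters of a short window and say nothing of binding, and these motifs were picked with the expression results known.

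LPS moved most of these genes, though not all in the same direction. The nuclear phosphatase genes Dusp1, Dusp2, Dusp4 and Dusp5 and the JNK and p38 phosphatase genes Dusp10 and Dusp16 rose in both genotypes, by 1.48-fold to 39.5-fold, where the sizes for Dusp4, Dusp5 and Dusp10 depend on the signal used (given with each gene). Dusp6, the cytoplasmic ERK phosphatase gene, fell in both genotypes. Spry1 and Trib1 fell in knockout cells, while in wildtype cells they had log2 changes of -0.41 and -1.08 that did not pass the test. The genotypes were not shown to differ in these changes (limma adjusted p of the difference = 0.40 and 0.21). Spry2 stayed near background in every group.

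In the knockout channel 9 of 10 members passed the threshold of limma's moderated test (adjusted p of 0.05 over all genes), 6 higher and 3 lower, where 41.7% of all 23584 genes passed (18.9% higher and 22.8% lower). In the wildtype channel 7 of 10 passed, 6 higher and 1 lower, against 41.6% of all genes (18.1% higher and 23.6% lower). The median log2 change was 0.83 over the members in each channel, against -0.015 in knockout and -0.008 in wildtype cells over all genes. LPS and basal levels did not overlap for 9 members in knockout cells and 8 in wildtype cells, as for 76.3% and 75.4% of all genes. Without basal replicate 2 the count in knockout cells was 4, and leaving out any other array gave 7 or 8. With each channel scaled to its 75th percentile, the median change of all genes shifted to 0.359 in knockout and 0.377 in wildtype cells, and the split of all genes was 10715 higher and 4186 lower in knockout and 11547 higher and 4205 lower in wildtype cells, against 4456 and 5382, and 4265 and 5555, with the levels used here.

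Dusp2, an immune cell phosphatase gene also known as PAC1, showed the largest response of the 10. Its normalised level (log2 intensity) in knockout cells was 14.82 and 15.30 after LPS, against 9.90 and 9.61 at rest. In wildtype cells it was 14.51 and 14.32 after LPS, against 9.60 and 9.15 at rest. The LPS samples lay far above the basal samples in both genotypes. The log2 change was 5.30 ± 0.21 in knockout cells (SE, n = 2 arrays per condition, limma adjusted p = 0.00062) and 5.04 ± 0.18 in wildtype cells (adjusted p = 0.00042). It passed in both channels under every alternative tried, between 4.81 and 5.65.

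Dusp1 encodes MKP-1, which restrains p38 and JNK and thereby cytokine output in macrophages. Its level in knockout cells was 11.88 and 12.94 after LPS, against 9.96 and 9.67 at rest. In wildtype cells it was 11.29 and 11.63 after LPS, against 9.74 and 9.87 at rest. The basal samples of the genotypes overlapped, while both knockout LPS samples were above both wildtype LPS samples. Between these channels dye and genotype cannot be told apart. The difference of the knockout effect between conditions did not pass for Dusp1 (limma adjusted p = 0.25). Dusp1 rose by 2.59 ± 0.38 in knockout cells (log2, SE, limma adjusted p = 0.0082) and by 1.65 ± 0.15 in wildtype cells (adjusted p = 0.0020). The knockout LPS samples were 1.06 apart, the widest replicate gap among the 10 genes, and without basal replicate 2 the knockout change did not pass (adjusted p = 0.060).

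Dusp5, a nuclear phosphatase gene specific for ERK, had levels of 8.57 and 8.68 after LPS in knockout cells, against 6.63 and 6.80 at rest. In wildtype cells the levels were 8.29 and 8.10 after LPS, against 6.62 and 6.75 at rest. Again the genotypes overlapped at rest and did not overlap after LPS, though here too dye and genotype cannot be told apart. The difference of the knockout effect between conditions did not pass for Dusp5 (limma adjusted p = 0.32). The log2 changes were 1.91 ± 0.12 in knockout cells (limma adjusted p = 0.0012) and 1.50 ± 0.12 in wildtype cells (adjusted p = 0.0014), and with the Agilent processed signals 3.11 and 2.67. Dusp4, which acts on ERK and JNK, was at 7.32 and 7.67 after LPS in knockout cells, against 6.63 and 6.87 at rest, and at 7.43 and 7.86 in wildtype cells after LPS, against 6.53 and 6.58 at rest. It rose by 0.74 ± 0.17 in knockout cells (adjusted p = 0.026) and by 1.09 ± 0.17 in wildtype cells (adjusted p = 0.0080), the only member of those that rose with the larger estimate in wildtype cells. With the processed signals the changes of Dusp4 were 1.68 and 2.11. Without basal replicate 1 or basal replicate 2 Dusp4 did not pass, in knockout cells (adjusted p = 0.13 and 0.082) or in wildtype cells (adjusted p = 0.055 and 0.053).

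Dusp16 encodes a phosphatase of JNK and p38 that shuttles between nucleus and cytoplasm. Its level in knockout cells was 13.35 and 13.35 after LPS, against 10.92 and 10.85 at rest, and in wildtype cells 13.24 and 12.86 after LPS, against 10.70 and 10.86 at rest. It rose by 2.47 ± 0.098 in knockout cells (limma adjusted p = 0.00062) and by 2.27 ± 0.16 in wildtype cells (adjusted p = 0.0012). The second Dusp16 probe gave 1.88 and 1.68. Dusp10, for MKP-5, was at 7.96 and 7.63 after LPS in knockout cells, against 6.87 and 6.89 at rest, and at 7.43 and 7.38 in wildtype cells after LPS, against 6.90 and 6.78 at rest. It rose by 0.92 ± 0.15 in knockout cells (adjusted p = 0.010) and by 0.57 ± 0.098 in wildtype cells (adjusted p = 0.011), and with the processed signals by 1.52 and 0.93. The call was lost without either basal array, with adjusted p = 0.067 and 0.070 in knockout cells and 0.051 and 0.080 in wildtype cells.

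Dusp6 encodes MKP-3, a phosphatase specific for ERK whose gene is a transcriptional target of ERK. Its level in knockout cells was 8.49 and 8.79 after LPS, against 10.53 and 11.42 at rest, and in wildtype cells 9.29 and 9.79 after LPS, against 10.82 and 11.75 at rest. LPS and basal samples did not overlap in either genotype. The knockout LPS samples were the lowest of all, though between the channels dye and genotype cannot be told apart. Dusp6 fell, with -2.33 ± 0.32 in knockout cells (log2, SE, limma adjusted p = 0.0074) and -1.74 ± 0.35 in wildtype cells (adjusted p = 0.018). Without LPS replicate 1 the wildtype change, -1.49, did not pass (adjusted p = 0.065).

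Trib1 had levels of 9.75 and 9.34 after LPS in knockout cells, against 10.59 and 11.54 at rest, and of 10.32 and 10.09 in wildtype cells after LPS, against 10.78 and 11.78 at rest. The groups did not overlap in either genotype, though the basal samples were 0.95 apart in knockout and 1.01 apart in wildtype cells. The log2 change was -1.52 ± 0.36 in knockout cells (limma adjusted p = 0.029) and -1.08 ± 0.35 in wildtype cells (adjusted p = 0.065), and -1.34 and -0.89 by the second probe. The knockout call was lost without basal replicate 2 (adjusted p = 0.071), without LPS replicate 2 (adjusted p = 0.076) and with a replicate block (adjusted p = 0.051), and the wildtype change passed under 5 alternatives, among them leaving out basal replicate 1 (-1.58, adjusted p = 0.017). Spry1 was at 7.08 and 6.85 after LPS in knockout cells, against 7.47 and 7.98 at rest, and at 7.70 and 7.18 in wildtype cells after LPS, against 7.58 and 8.13 at rest. In wildtype cells LPS and basal levels overlapped. The log2 change of Spry1 was -0.76 ± 0.21 in knockout cells (adjusted p = 0.044) and -0.41 ± 0.26 in wildtype cells (adjusted p = 0.27). The knockout call of Spry1 was lost under 6 of 15 alternatives, among them the Agilent processed signals (-1.25, adjusted p = 0.053), the replicate block (adjusted p = 0.076) and leaving out basal replicate 2, LPS replicate 1 or LPS replicate 2 (adjusted p = 0.15, 0.055 and 0.11). Spry2 was at 6.35 and 6.41 after LPS in knockout cells, against 6.34 and 6.49 at rest, and at 6.31 and 6.20 in wildtype cells after LPS, against 6.22 and 6.29 at rest. It was not well above background on either basal array in the knockout channel, so no fold is given there.

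**Figure D1:**
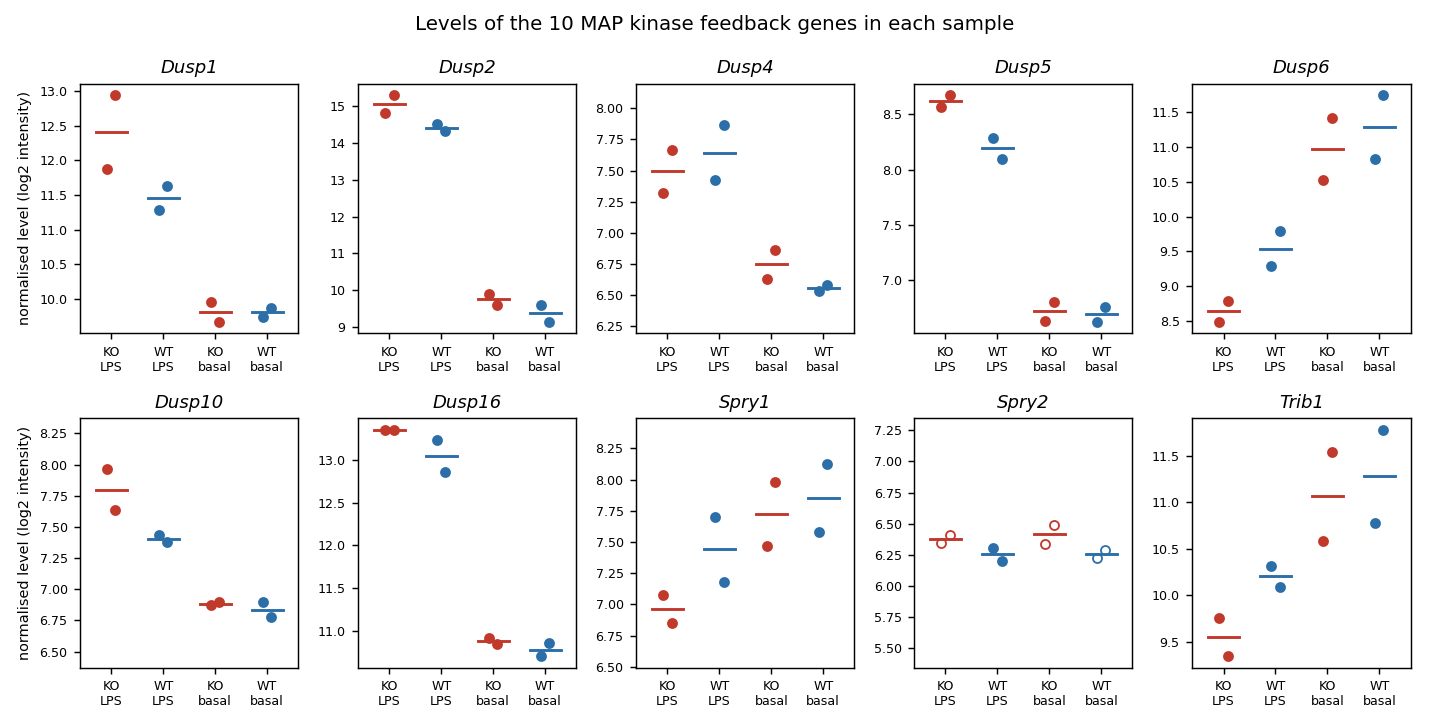
Normalised level (log2 intensity, y axis, its range set for each gene) of the 10 genes in knockout (KO, red) and wildtype (WT, blue) samples after LPS and at rest, with a point per array and a line at the mean of 2 arrays. Open points belong to groups that were not well above background on both arrays (Spry2), and the LPS samples lie above the basal samples for 6 genes and below them in both genotypes for Dusp6 and Trib1.

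**Figure D2:**
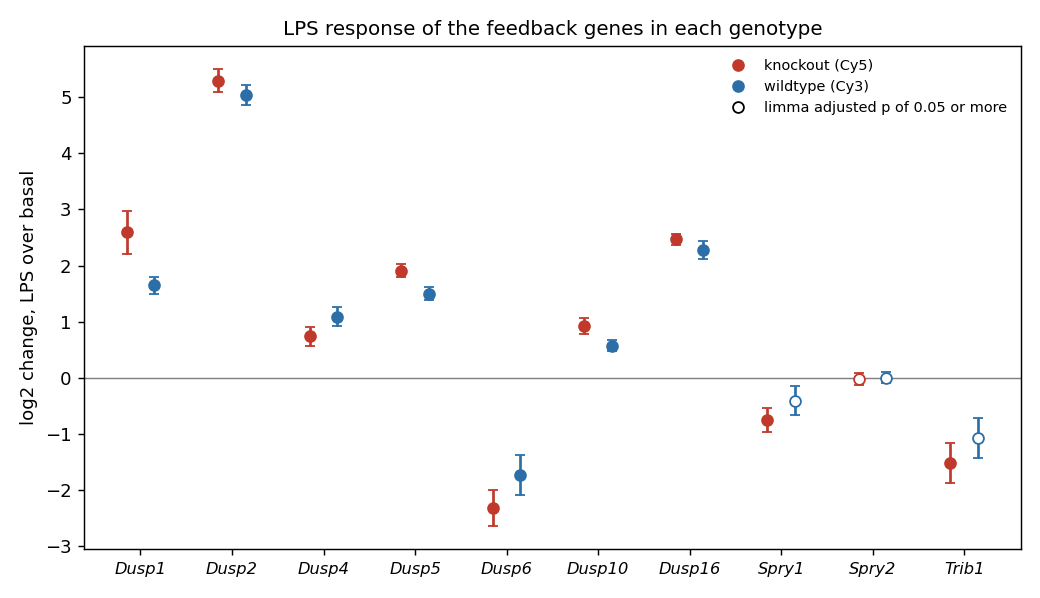
Log2 change of each gene, LPS over basal (y axis), in knockout (red) and wildtype (blue) cells, with the standard error of the limma fit (n = 2 arrays per condition) and open points where the adjusted p was 0.05 or more. Dusp2 rose most, at 5.30 in knockout and 5.04 in wildtype cells, and Dusp6 fell most, at -2.33 and -1.74.

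On the LPS arrays the ratio of knockout over wildtype passed the test for most of these genes. In this ratio dye bias and genotype cannot be told apart. Dusp1, Dusp2, Dusp5 and Dusp10 were higher in the knockout, by 1.31-fold to 1.93-fold. Dusp6, Trib1 and Spry1 were lower in the knockout, by 1.39-fold to 1.86-fold. Dusp4, Dusp16 and Spry2 did not pass.

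Under LPS 7 of 10 members passed, 4 higher and 3 lower, where 12.4% of all genes passed (7.16% higher and 5.22% lower). Each of the 10 had the same sign on both LPS arrays, as did 70.1% of all genes, and the median log2 ratio was 0.21 over the members and -0.001 over all genes. The count rests on both LPS arrays: it was 4 without LPS replicate 1 and 1 (Dusp6) without LPS replicate 2. With the Agilent processed signals, and likewise with the authors' value table, 3 passed (Dusp6, Trib1 and Spry1, all lower). With median centring in place of loess 8 passed, 5 higher and 3 lower, while the split of all genes was 4625 higher and 858 lower, against 1688 and 1232 with loess.

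Dusp6 had log2 ratios of knockout over wildtype of -0.80 and -0.997 on the LPS arrays. The mean of -0.90 ± 0.076 (SE, n = 2, limma adjusted p = 0.0013) passed under all 13 alternatives, between -1.13 and -0.78. Trib1 had ratios of -0.56 and -0.75, a mean of -0.66 ± 0.076 (adjusted p = 0.0036) and -0.60 by its second probe. Without LPS replicate 2 its adjusted p was 0.070. Spry1 had ratios of -0.62 and -0.33 and a mean of -0.48 ± 0.088 (adjusted p = 0.019), and did not pass without LPS replicate 1 or 2 (adjusted p = 0.18 and 0.061). With the Agilent processed signals its ratio was -0.86 (adjusted p = 0.031).

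Dusp1 had log2 ratios of 0.59 and 1.31 on the LPS arrays, the widest pair of the 10, with a mean of 0.95 ± 0.18 (limma adjusted p = 0.020). Dusp2 had ratios of 0.31 and 0.98 and a mean of 0.64 ± 0.15 (adjusted p = 0.039). For both genes LPS replicate 2 gave the larger ratio, and without it the adjusted p was 0.15 for Dusp1 and 0.20 for Dusp2. Dusp5 had ratios of 0.28 and 0.58 and a mean of 0.43 ± 0.088 (adjusted p = 0.026; 0.063 without LPS replicate 1 and 0.19 without LPS replicate 2). Dusp10 had ratios of 0.53 and 0.26 and a mean of 0.39 ± 0.089 (adjusted p = 0.038; 0.30 without LPS replicate 1, 0.091 without LPS replicate 2 and 0.067 with a replicate block). With the Agilent processed signals the ratios of these 4 genes were 0.95, 0.71, 0.60 and 0.65, as large or larger, with adjusted p between 0.071 and 0.11. Dusp16 had ratios of 0.11 and 0.49 with a mean of 0.30 ± 0.11 (adjusted p = 0.13), but its second probe averaged -0.10, so the probes disagree in sign. Dusp4 was at -0.15 ± 0.077 (adjusted p = 0.25) and Spry2 at 0.13 ± 0.076 (adjusted p = 0.32).

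At rest no member passed in knockout against wildtype: 0 of 10 by limma, with 4 at an unadjusted p under 0.05, where 4.86% of all genes passed (3.37% higher and 1.49% lower) and 19.8% had an unadjusted p under 0.05. The 4 were Dusp2, Dusp4, Dusp6 and Trib1. Of the 10, 7 had the same sign on both basal arrays, as did 65.7% of all genes. Dusp6 had log2 ratios of -0.29 and -0.33 on the basal arrays and a mean of -0.31 ± 0.076 (adjusted p = 0.085). Dusp2 had ratios of 0.30 and 0.46 and a mean of 0.38 ± 0.15 (adjusted p = 0.23). Trib1 was at -0.19 and -0.24 (mean -0.21 ± 0.076, adjusted p = 0.19), and Dusp4 at 0.10 and 0.29 (mean 0.19 ± 0.077, adjusted p = 0.24). Dusp1 had ratios of 0.21 and -0.20, so its genotypes were on opposite sides on the basal arrays. The means of Dusp1, Dusp5, Dusp10, Dusp16 and Spry1 lay between -0.13 and 0.10. For Dusp16 the second probe averaged -0.29, against 0.10 by the probe used, so the probes disagree in sign at rest too. No ratio is read for Spry2, which was not well above background in the knockout basal samples.

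**Figure D3:**
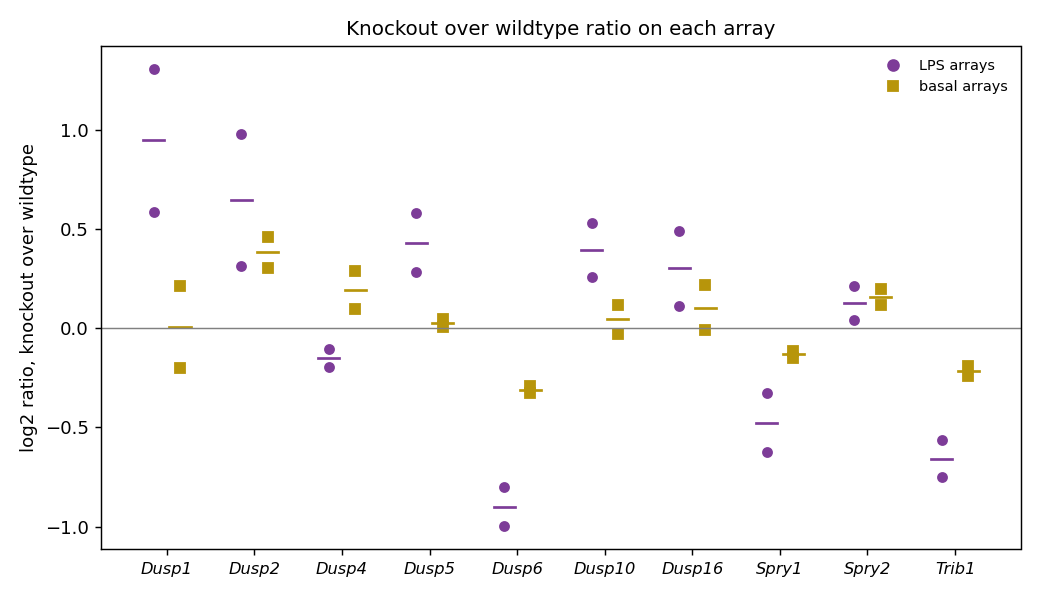
Log2 ratio of knockout over wildtype (y axis) of each gene on each LPS array (circles) and each basal array (squares), with a line at the mean of 2 arrays. On the LPS arrays Dusp1, Dusp2, Dusp5 and Dusp10 lie above 0 and Dusp6, Spry1 and Trib1 below it. These 7 genes are those that passed on the LPS ratio, a choice that by itself favours basal ratios closer to 0. Their mean basal ratios did lie closer to 0, and the difference between conditions passed for 0 of the 10 genes.

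Whether the knockout effect itself changed with LPS was asked by the difference of the ratios, LPS minus basal, in which a constant dye effect cancels. Of the 10 genes 0 passed by limma (where 0.382% of all genes passed). At an unadjusted p under 0.05 there were 7, against 10.4% of all genes, and the ratios of LPS and basal arrays did not overlap for 7, against 41.6% of all genes. Dusp1 had the largest positive difference, 0.94 ± 0.25 (log2, SE, n = 2 arrays per condition, adjusted p = 0.25), with ratios of 0.59 and 1.31 on the LPS arrays against 0.21 and -0.20 on the basal arrays. Dusp5 and Dusp10 were at 0.40 ± 0.12 and 0.35 ± 0.13 (adjusted p = 0.32 and 0.41). Dusp6 had the largest negative difference, -0.59 ± 0.11 (adjusted p = 0.12), followed by Trib1 at -0.44 ± 0.11 (adjusted p = 0.21; -0.44 by its second probe too). Spry1 was at -0.35 ± 0.12 (adjusted p = 0.40). Dusp4 was at -0.34 ± 0.11 (adjusted p = 0.33), and its ratio was below 0 on both LPS arrays (-0.11 and -0.20) and above 0 on both basal arrays (0.10 and 0.29). Dusp2 and Dusp16, at 0.26 and 0.20, had ratios that overlapped between the conditions, and no difference is read for Spry2, which was not well above background in the knockout basal samples. With a crossed pairing of the arrays, chosen after seeing the data, Dusp1 alone passed (adjusted p = 0.014). A difference of the knockout effect between LPS and rest is therefore not shown for any of these genes with the levels and fit used here, and a p that misses the threshold does not show that the effects were alike.

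Of 15 other dual-specificity phosphatase genes 14 were measured, and LPS raised 3 and lowered 6 in each genotype, where 18.9% of all genes rose and 22.8% fell in knockout and 18.1% rose and 23.6% fell in wildtype cells, with a median of -0.17 in knockout and -0.21 in wildtype cells. Dusp14 rose by 2.36 ± 0.43 in knockout and 2.06 ± 0.52 in wildtype cells, Dusp11 by 1.36 ± 0.10 and 1.32 ± 0.16, and Dusp28 by 1.04 ± 0.25 and 1.00 ± 0.26. Dusp3 fell, with -2.90 ± 0.18 in knockout and -2.80 ± 0.21 in wildtype cells (-1.77 and -1.76 by its second probe). Dusp7, a close relative of Dusp6 and likewise a cytoplasmic ERK phosphatase gene, fell as well (-2.51 ± 0.14 and -2.35 ± 0.13). So did Dusp18 (-0.89 ± 0.12 and -0.93 ± 0.096). Under LPS, 1 of the 14 was lower in the knockout, Dusp7 at -0.27 ± 0.066 (limma adjusted p = 0.048), and 1 was higher, the pseudophosphatase gene Styx at 0.30 ± 0.067 (adjusted p = 0.037), counts near the 5.22% lower and 7.16% higher among all genes. At rest 0 of the 14 passed in knockout against wildtype, where 4.86% of all genes passed. Of the 7 other Sprouty, SPRED and Tribbles genes 5 were measured. Spred1, another inhibitor of the path to ERK, rose by 1.85 ± 0.18 in knockout and 1.84 ± 0.26 in wildtype cells, while Spred2 (-0.86 ± 0.19 and -0.92 ± 0.15) and Trib2 (-0.87 ± 0.17 and -0.74 ± 0.12) fell. Of these 5, 0 passed in knockout against wildtype under LPS and 0 at rest, where 12.4% and 4.86% of all genes passed. The median ratio of the 5 was -0.05 under LPS and -0.04 at rest.

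Of the 10 MAP kinase genes LPS lowered 3 in knockout and 2 in wildtype cells and raised 0, where 22.8% and 23.6% of all genes fell, so the count lowered is near the share of all genes. Mapk14, for p38 alpha, fell, with -2.41 ± 0.23 in knockout and -1.76 ± 0.23 in wildtype cells (-1.15 and -0.93 by its second probe), as did Mapk7, for ERK5, with -1.23 ± 0.21 and -0.81 ± 0.21. Under LPS 3 of the 10 were lower in the knockout, where 5.22% of all genes were lower. The 3 were Mapk14 at -0.71 ± 0.066 (limma adjusted p = 0.0019), Mapk13 at -0.34 ± 0.074 and Mapk7 at -0.32 ± 0.066. The second Mapk14 probe gave -0.31. At rest 0 of the 10 passed in knockout against wildtype, where 4.86% of all genes passed.

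Of 19 upstream kinase and adaptor genes LPS raised 6 in each genotype and lowered 5 in knockout and 7 in wildtype cells, where 18.9% of all genes rose and 22.8% fell in knockout and 18.1% rose and 23.6% fell in wildtype cells. Map3k8, for TPL2, the kinase that links TLR4 to MEK and ERK, rose by 2.75 ± 0.21 in knockout and 2.61 ± 0.21 in wildtype cells. Map2k1, for MEK1, rose by 1.87 ± 0.11 and 1.67 ± 0.28. Tab1, for a partner of the kinase TAK1, fell (-1.86 ± 0.32 and -1.59 ± 0.18). Under LPS 3 of the 19 were higher in the knockout and 0 lower, where 7.16% of all genes were higher and 5.22% lower. The 3 were Map3k14 at 0.43 ± 0.10, Map3k8 at 0.41 ± 0.074 and Map3k1 at 0.36 ± 0.084 (limma adjusted p = 0.044, 0.018 and 0.041). Of 9 kinase genes downstream of MAP kinases LPS raised 2 and lowered 3 in knockout and raised 1 and lowered 2 in wildtype cells. The shares of all genes are those given above for the 19. Mapkapk2, for the p38 target MK2, rose by 1.75 ± 0.17 in knockout and 1.65 ± 0.20 in wildtype cells. Rps6ka1, for the ERK target RSK1, fell (-3.0 ± 0.11 and -2.62 ± 0.11), as did Mknk2 (-2.08 ± 0.31 and -1.94 ± 0.15). Under LPS 2 of the 9 were lower in the knockout and 0 higher, where 5.22% of all genes were lower and 7.16% higher. The 2 were Rps6ka1 at -0.64 ± 0.068 and Mapkapk3 at -0.45 ± 0.084 (limma adjusted p = 0.0027 and 0.021). At rest 0 of the 19 and 0 of the 9 passed in knockout against wildtype, where 4.86% of all genes passed.

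Of 22 immediate-early and ERK target genes 21 were measured, and 4 rose and 9 fell with LPS in each genotype (all genes, 18.9% and 22.8% in knockout, 18.1% and 23.6% in wildtype cells), with a median of -0.30 in knockout and -0.46 in wildtype cells. Fosl2 and Ier5, not among those called, depend on the probe. The second Fosl2 probe gave 1.22 in knockout and 1.16 in wildtype cells, against -0.20 and -0.50 by the probe counted. For Ier5 the second probe gave 1.27 and 1.04, against 0.32 and 0.27. Errfi1, for the receptor feedback inhibitor MIG6, rose by 2.18 ± 0.37 in knockout and 1.49 ± 0.37 in wildtype cells, and Junb by 1.50 ± 0.11 and 1.31 ± 0.12. Zfp36, for the mRNA decay factor tristetraprolin, rose by 1.46 ± 0.13 and 1.25 ± 0.21. The largest falls were those of Egr2 (-4.27 ± 0.12 and -3.48 ± 0.26), Etv5 (-2.32 ± 0.65 and -2.43 ± 0.44) and Ccnd1, for cyclin D1 (-2.30 ± 0.23 and -2.23 ± 0.24). Under LPS 3 of the 21 were higher in the knockout, Ier5 at 0.65 ± 0.072 (0.23 by its second probe), Errfi1 at 0.61 ± 0.073 and Zfp36 at 0.42 ± 0.089 (limma adjusted p = 0.0032, 0.0043 and 0.029). Lower were 5, with Egr2 at -0.72 ± 0.14, Plaur at -0.59 ± 0.11 and Phlda1 at -0.49 ± 0.071 (adjusted p = 0.024, 0.018 and 0.0084). The shares of all genes were 7.16% higher and 5.22% lower under LPS. At rest 1 of the 21 passed, where 4.86% of all genes passed. It was Ier5 at 0.60 ± 0.072, with 0 by its second probe.

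Of 6 listed symbols for C/EBP factors and TRIB1 partners 5 were measured, and 2 rose with LPS in each genotype while 2 fell in knockout and 1 in wildtype cells. Among all genes 18.9% rose and 22.8% fell in knockout cells, and 18.1% rose and 23.6% fell in wildtype cells. Cebpa, whose protein TRIB1 and COP1 remove, fell, with -3.93 ± 0.16 in knockout and -4.13 ± 0.19 in wildtype cells. Cop1 rose by 0.99 ± 0.12 and 1.07 ± 0.14, with the same direction by its other probes (0.52 and 1.30 in knockout, 0.63 and 1.30 in wildtype cells). Cebpb was lower in the knockout under LPS, at -0.42 ± 0.077 (limma adjusted p = 0.020). The Cebpa ratio of knockout over wildtype was -0.11 ± 0.082 under LPS and -0.32 ± 0.082 at rest (adjusted p = 0.41 and 0.097).

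**Figure D4:**
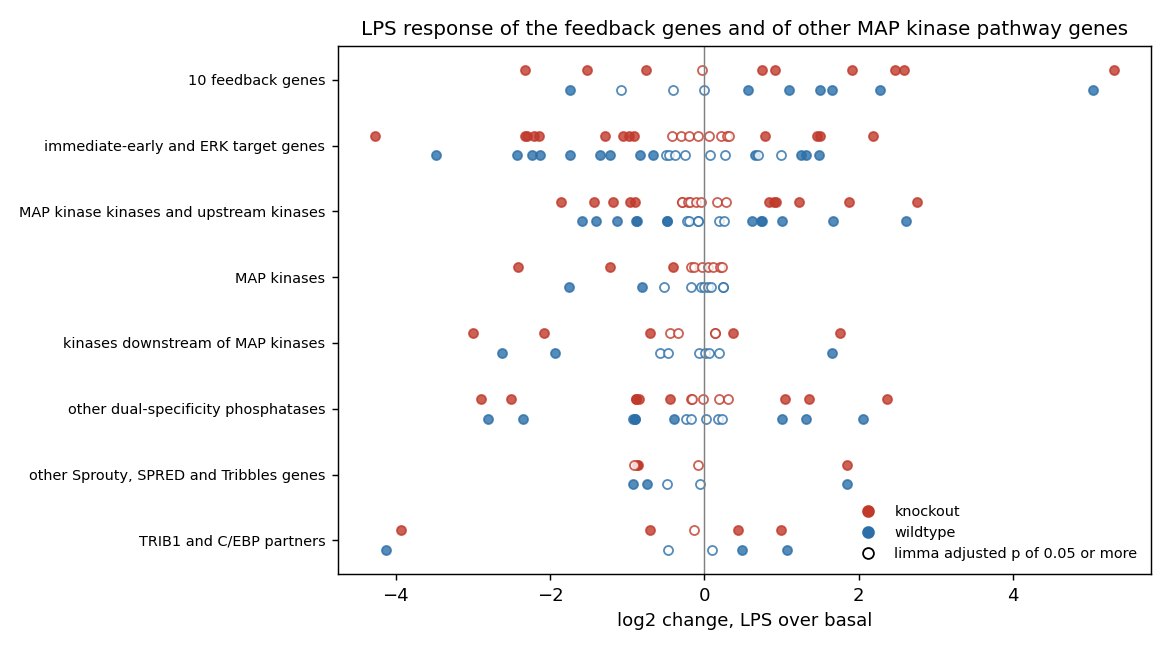
Log2 change with LPS (x axis) of each measured gene, for the 10 feedback genes and 7 lists of MAP kinase pathway genes, in knockout (red) and wildtype (blue) cells, with open points where the limma adjusted p was 0.05 or more. Every list holds genes that fell, the MAP kinases hold 0 that rose, and the longest rise belongs to Dusp2 at 5.30.

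Across the 8 levels of a gene (4 arrays, both channels) the 6 phosphatase genes that rose ran together, with Pearson's r from 0.78 (Dusp4 and Dusp10) to 0.99 (among Dusp2, Dusp5 and Dusp16). Dusp6, Trib1 and Spry1 ran together as well, with r of 0.95 for Dusp6 and Trib1, 0.96 for Spry1 and Trib1 and 0.85 for Dusp6 and Spry1. These points share arrays and the LPS contrast, so r is a description only. The genes with the most similar profiles were ranked by the root mean square distance of their 8 centred log2 levels. For Dusp6 these were Aurka (0.18), Ccnd3 (0.208) and Ska1 (0.243), and for Trib1 Nusap1 (0.168), Rrm1 (0.173) and Spag5 (0.175). For Spry1 they were Rad54b (0.108), Pkm (0.109) and Smc4 (0.112). For Dusp2 they included Ccl22 (0.265) and Calhm6 (0.288), and for Dusp1 they were Hbb-b2 (0.147), Dnase1l3 (0.182) and Gm10406 (0.208). For Dusp16 they were Pik3r5 (0.0937), Ubxn2a (0.0991) and Itgav (0.10). For Dusp5 they were Myl4 (0.0942), Fbxw11 (0.102) and Dkk2 (0.109), for Dusp4 Tssk3 (0.0806), Apon (0.0859) and Hdac1 (0.0953), and for Dusp10 Kcnh4 (0.0554), Sik2 (0.0607) and Nanos3 (0.0665). For Spry2 (root mean square of 0.0887 about its own mean) they were Rhox10, Fth1 and Tnni3k, at distances of 0.0413 to 0.0435. The distances are in log2 units and were not scaled by the range of a gene.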

How the data were processed

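Spot intensity in each channel was read from the deposited scanner output of Agilent Feature Extraction, whose version is 11.5.1.1 per the file headers and, per the submitters' processing notes, 9.3.2.1. In the authors' value table each value is a log2 ratio (knockout over wildtype), which differed from that of the deposited processed signals by a median of -0.0020 to 0.0051 per array; its centring is unknown, and its column medians were 0.016, 0.034, 0.029 and 0.031. The deposited log10 ratios were not used. Per the file headers the 4 arrays came from 1 slide and 1 scan. There are 4 arrays, and their number limits the precision.

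Median foreground intensities, in place of the means often used, were corrected with normexp (offset 50), normalised by loess within arrays, giving weight 0 to controls and outliers, and by Aquantile between arrays (limma 3.58.1, R 4.3.3). Probes well above background in at least 1 channel on 2 or more arrays were kept (28652 of 39429). Accessions without versions were matched to RefSeq GRCm38.p6, which named 27508 probes; mm9, the build in the file headers, was not used. The brightest kept probe stood for a gene. LPS against basal was fitted per channel and knockout against wildtype on the log2 ratios of all 4 arrays, with lmFit, eBayes and Benjamini-Hochberg adjustment over 23584 genes, two-sided, threshold 0.05; the fits were tested on simulated data. Summed marker levels are log2 of the summed linear levels. The members, lists, tests and motifs were chosen with earlier results of these data known. Named beside the members are Cdk5r1, up to 3 genes per list and direction with the largest change past the threshold, and 3 genes per member with the nearest profile, of which 1 is not reported here. The Cebpa ratios were added after their values were seen. Same-numbered LPS and basal arrays are not stated to share animals, and their deviations correlated at -0.08 (knockout channel), -0.19 (wildtype channel) and -0.16 (log2 ratio), so no pairing was used. T, NK and B cell markers summed to 13.27 to 13.29 in knockout and 13.08 to 13.11 in wildtype LPS samples, and stromal markers to 12.83 to 12.92 and 13.03 to 13.28.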

Additional observations from a re-analysis of the deposited data

How the results depend on the processing

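Over 685 recomputed values of single genes, 620 kept their direction and their side of the threshold, 38 lost the call, 11 gained it and 16 changed sign; the cause was not tested, except that leaving out an array leaves fewer samples, a lone array then being assumed to vary like the others. Members called in knockout against wildtype under LPS were 3 with the Agilent processed signals and 3 with the authors' value table, against 7; leaving out 1 array gave 1 to 7. Leaving out 1 array gave 4 to 8 of 10 for LPS in knockout cells. At rest median centring gave 1 (Dusp2, 0.53, adjusted p = 0.018), against 0. With the replicate block the counts were 7 and 7 for LPS in knockout and wildtype cells, 6 under LPS and 0 at rest for knockout against wildtype, and 0 for the difference; beside the calls of Spry1, Trib1 and Dusp10 named above it changed no other. The crossed pairing, added after seeing the data, gave 9, 9, 8, 0 and 1 (Dusp1).

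Signs changed for values that lay from -0.03 to 0.26 with the levels used here, none of them called. Spry2 was not well above background in the knockout basal samples, so its values are listed only to show that their sign is not settled. Its LPS change in knockout cells, -0.03 with the levels used here, became 0.43 with processed signals and 0.46 with 75th percentile scaling (adjusted p = 0.022), and was -0.11 to 0.04 without 1 array. Its difference between conditions became 0.37 with processed signals, 0.37 with the value table and 0.02 with median centring, and was -0.12 to 0.06 without 1 array. At rest Dusp1 became -0.01 with processed signals and -0.01 with the value table, and -0.20 to 0.21 without 1 array; Dusp5 became -0.02 with median centring; Dusp16 became -0.09 over both probes and -0.01 to 0.22 without 1 array; Dusp10 was -0.03 to 0.12 without 1 array. The Dusp2 difference, 0.26 with the levels used here, was -0.07 to 0.60 without 1 array. Spry2 was not tested with the filter on all 4 arrays.

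Over all genes, the 2920 calls under LPS became 1588 with processed signals, 1745 with the value table, 5483 with median centring, and 485 or 393 without LPS replicate 1 or 2. The 1147 calls at rest became 720 with processed signals and 4458 with median centring (3810 higher and 648 lower, against 795 and 352). The 9838 calls for LPS in knockout cells became 14901 with 75th percentile scaling, and 4779 or 4069 without basal replicate 1 or 2, and the 9820 in wildtype cells became 15752, 5539 and 5195. The 90 calls for the difference ranged from 4 (without LPS replicate 2) to 364 (crossed pairing). Signal over background limits Spry2, the only member with a group not well above background on either array. Dusp4, Dusp5 and Dusp10 were well above background but low at rest, at levels of 6.53 to 6.90. Their LPS changes were larger with the processed signals, as given above.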

Other observations

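Dusp6, Trib1 and Spry1, which passed as lower with LPS in knockout cells, differed between the basal arrays in the same way in both channels. The channels share an array and its spots, so they are not independent observations. Basal replicate 2 exceeded basal replicate 1 by 0.95 in knockout and 1.01 in wildtype cells for Trib1, by 0.89 and 0.92 for Dusp6, and by 0.51 and 0.55 for Spry1 (log2 levels). Over all genes the median absolute gap was 0.12 in the knockout and 0.11 in the wildtype channel. The gaps of the 6 phosphatase genes that rose with LPS lay between -0.30 and 0.23 in knockout and between -0.45 and 0.16 in wildtype basal samples. The ratio of knockout over wildtype was close on both basal arrays for Dusp6 (-0.29 and -0.33), Trib1 (-0.19 and -0.24) and Spry1 (-0.11 and -0.15). On the LPS arrays the gap of Dusp1 was 1.06 in knockout and 0.34 in wildtype cells, and that of Dusp2 was 0.48 and -0.19.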
